A study of Mus musculus with 28 samples.

Results

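Gria1 encodes the GluA1 subunit of AMPA-type glutamate receptors. Its contacts were read along the whole gene body from a site upstream of its promoter, in mouse embryonic stem cells (ESC) with and without an inserted regulatory element. The annotated gene lies on chromosome 11 from 57011571 to 57330244 (mm10) and is 319 kb long. Members were all restriction fragments whose midpoint lay in this span or in the 5 kb on each side of it, in 4 libraries that share the insertion site as viewpoint. There were 365 such fragments, among 1586 fragments read within 1 Mb of the viewpoint in these libraries and 99194 read in the 13 libraries of the series that were analysed. By library, 202 fragments had reads in TFBS+CGI, 271 in TFBS, 124 in CGI and 156 in WT.

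AMPA receptors carry most fast excitatory transmission in the brain. GluA1 is the subunit best known for activity-dependent delivery of receptors to synapses. Gria1 is a long gene known for its use in neurons. The assay, 4C-seq, is a chromosome conformation capture method that ligates DNA that lies close in the crosslinked nucleus and reads every fragment joined to a chosen fragment, the viewpoint. Contact generally thins with distance from the viewpoint, so a long gene is read at very different distances from its start to its end.

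The study concerns poised enhancers, which are regulatory elements kept silent but marked for later use, and the CpG islands (CGI) beside them. Cells were of the line E14Tg2a at day 0, which is the undifferentiated state. In the knock-in lines, parts of the poised enhancer of Sox1 had been placed in the Gria1 topological domain: its transcription factor binding sites with its CGI (TFBS+CGI), the binding sites alone (TFBS) or the CGI alone (CGI). The wild type line (WT) carries no insert. The culture label of all 4 libraries is 2i+LIF, whereas the growth protocol names serum with LIF, and neither source says how many clones stand behind each line. There was 1 library per genotype, so no test between genotypes was possible and every difference below is one between libraries.

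The viewpoint fragment was the same in all libraries, at 56910361 to 56910414, 101 kb before the start of Gria1 and 420 kb before its end. Libraries held 2313468 to 7615835 reads, of which 75.5% to 96.5% lay on the viewpoint fragment itself. Values are shares of local reads, meaning reads at most 1 Mb from the viewpoint, without the nearest 10 kb on each side. Local reads numbered 417180 in TFBS+CGI, 130344 in TFBS, 51943 in CGI and 101121 in WT. The CGI library was thus the shallowest, with 0.815% of its reads in the local range, against 5.48% in TFBS+CGI, 5.63% in TFBS and 1.33% in WT. The insert could be looked for only at its donor locus near Sox1. The fragment with most reads within 50 kb of Sox1, on chromosome 8 from 12430220 to 12432553, had 3 reads in TFBS+CGI, 709 in TFBS, 0 in CGI and 22 in WT, a count for TFBS+CGI below that for WT. Over the 200 tallest TFBS fragments on other chromosomes, WT had a median of 2.94% and TFBS+CGI of 0.370% of the TFBS reads. Whether the 22 and 3 reads are such recurring reads was not tested, so the difference between WT and TFBS+CGI is not interpreted. The TFBS+CGI library is called here by its label.

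As a whole, the Gria1 span took a larger share of local reads in each knock-in library than in WT. In TFBS+CGI it held 22.6% of local reads (95% Wilson interval 22.5% to 22.7%). In TFBS it held 21.4% (21.2% to 21.65%), in CGI 34.0% (33.5% to 34.4%) and in WT 16.1% (15.9% to 16.3%). These shares rest on 94203, 27928, 17635 and 16272 reads in the same order. Intervals here cover counting error only, since PCR reads without molecular identifiers are not independent molecules. The log2 ratio over WT was 0.49 for TFBS+CGI (exact conditional interval 0.46 to 0.51), 0.41 for TFBS (0.39 to 0.44) and 1.1 for CGI (1.05 to 1.11). All 3 ratios use the same WT library. They depend on the scale: on the deposited RPM, without setting reads against local reads, they were 2.53 for TFBS+CGI, 2.49 for TFBS and 0.37 for CGI, which put CGI nearest to WT.

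The position of CGI at the top depended on how its tallest fragment was treated. The fragment at 57066341 to 57066442, 54.8 kb into the gene, had 11254 reads in CGI, which were 63.8% of its Gria1 reads and 21.7% of its local reads. The tallest fragment of the span held 5.02% of the Gria1 reads in TFBS+CGI, 11.6% in TFBS and 13.8% in WT. With the tallest fragment of each library left out of the span and of the total, the span held 21.7% in TFBS+CGI, 19.4% in TFBS, 15.7% in CGI and 14.2% in WT. The log2 ratio of CGI over WT was then 0.14, and those of TFBS+CGI and TFBS were 0.61 and 0.45.

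Counted as fragments instead of reads, Gria1 took nearly the same part of the local range in all libraries. Its span held 23.4% of the local fragments with reads in TFBS+CGI, 21.9% in TFBS, 22.8% in CGI and 21.7% in WT. The log2 ratios over WT on this count were 0.11, 0.016 and 0.073. Per 20 kb, the span had 12.3 fragments with reads in TFBS+CGI, 16.5 in TFBS, 7.55 in CGI and 9.49 in WT, against 8.02, 11.7, 5.09 and 6.83 in the rest of the local range. Gria1 therefore had more read fragments per length than the rest of the range in every library. By reads per length the span stood at 1.47 times the rest in TFBS+CGI, 1.37 times in TFBS, 2.58 times in CGI and 0.964 times in WT. The rest of the range includes stretches much nearer to and much farther from the viewpoint than the gene.

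The stretch on the opposite side of the viewpoint, equally far from it, from 56485531 to 56814204, is matched to the gene in distance and length. In TFBS+CGI the gene held 22.6% and this stretch 19.1% of local reads, a log2 ratio of gene over stretch of 0.24 (0.23 to 0.26). In TFBS the gene held 21.4% and the stretch 27.7%, a ratio of -0.37 (-0.40 to -0.35). In CGI the gene held 34.0% and the stretch 12.3%, a ratio of 1.46 (1.42 to 1.51), which was 0.51 without the tallest fragment of each side. In WT the gene held 16.1% and the stretch 22.0%, a ratio of -0.45 (-0.48 to -0.42). The gene side was thus the richer one in TFBS+CGI and CGI and the poorer one in TFBS and WT, and this order stayed when the tallest fragment of each side was left out. In fragments, the gene had 202 and the stretch 184 in TFBS+CGI, 271 and 252 in TFBS, 124 and 121 in CGI, and 156 and 154 in WT.

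**Figure D1:**
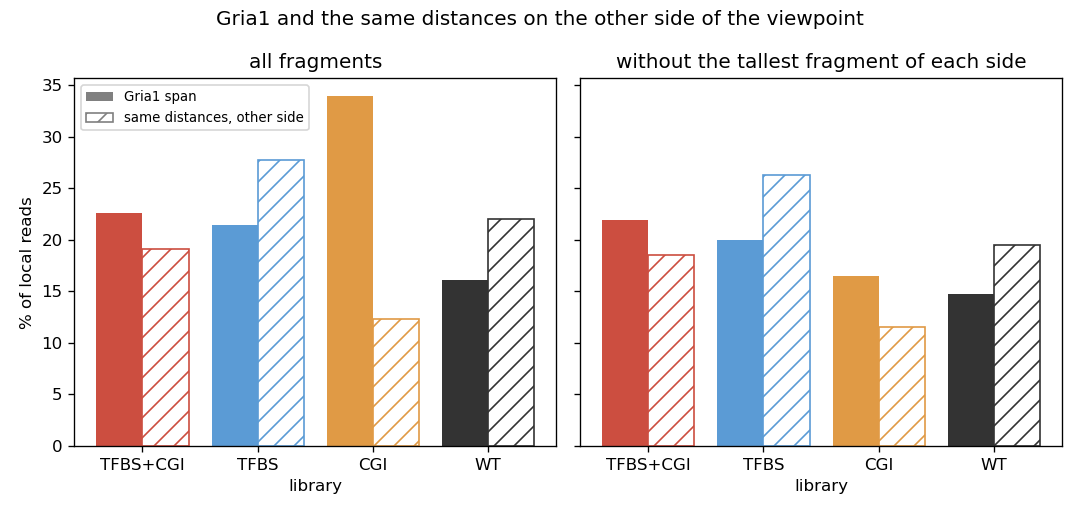
Share of local reads (%) on the Gria1 span (filled bars) and on the equally distant stretch opposite it (hatched bars) in the 4 libraries, with all fragments (left) and without the tallest fragment of each side (right). The CGI bar for Gria1 stands at 34.0% with all fragments and near the other libraries without its tallest fragment; bars are single libraries and carry no error bar.

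Along the gene, the span was cut into 16 steps of 20 kb from the promoter to the gene end, the last of which was 18.7 kb. Every step had reads in every library. The median step held 1.29% of local reads in TFBS+CGI, 0.911% in TFBS, 0.347% in CGI and 0.898% in WT. Within a library, steps differed far more than counting error: the highest step held 31.0 times the share of the lowest in TFBS+CGI, 10.5 times in TFBS, 1419 times in CGI and 49.9 times in WT. The CGI value is uncertain, as its lowest step had 8 reads (share 0.0078% to 0.0304%) and 1 fragment held 99.1% of its highest step. Without the tallest fragment of the span, the highest CGI step held 4.63% of local reads. No step profile declined evenly with distance, and the highest steps lay in different parts of the gene.

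In TFBS+CGI the highest steps were step 1, the promoter step, with 4.00% of local reads (3.94% to 4.06%), step 9, at 160 to 180 kb, with 2.90%, and step 6, at 100 to 120 kb, with 2.34%. In TFBS they were step 14, at 260 to 280 kb, with 3.80%, step 16, which reaches the gene end, with 3.56%, and step 1 with 1.85% (1.78% to 1.93%). In TFBS, step 16 rested on the tallest fragment of the span, which held 69.7% of its reads. Without that fragment step 16 held 1.11%, below step 1 at 1.90%, and step 14 stayed highest at 3.89%. In CGI they were step 3, at 40 to 60 kb, with 21.9%, step 11, at 200 to 220 kb, with 3.63%, and step 8, at 140 to 160 kb, with 2.37%. In WT they were step 1 with 4.24% (4.12% to 4.37%), step 16 with 1.49% and step 14 with 1.42%. With all fragments, step 1 was the highest step of both TFBS+CGI and WT and held 0.522% (0.463% to 0.587%) in CGI. Most of the 271 CGI reads in step 1, namely 85, 74, 57 and 32, lay on fragments among the 10 tallest of TFBS+CGI. Low counts of CGI on such fragments are described below, and whether these reads are contacts of CGI was not tested. Without the tallest fragment of the span, step 1 held 2.90% in TFBS+CGI, just under step 9 at 2.93%, and 2.07% in WT, where it stayed highest.

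**Figure D2:**
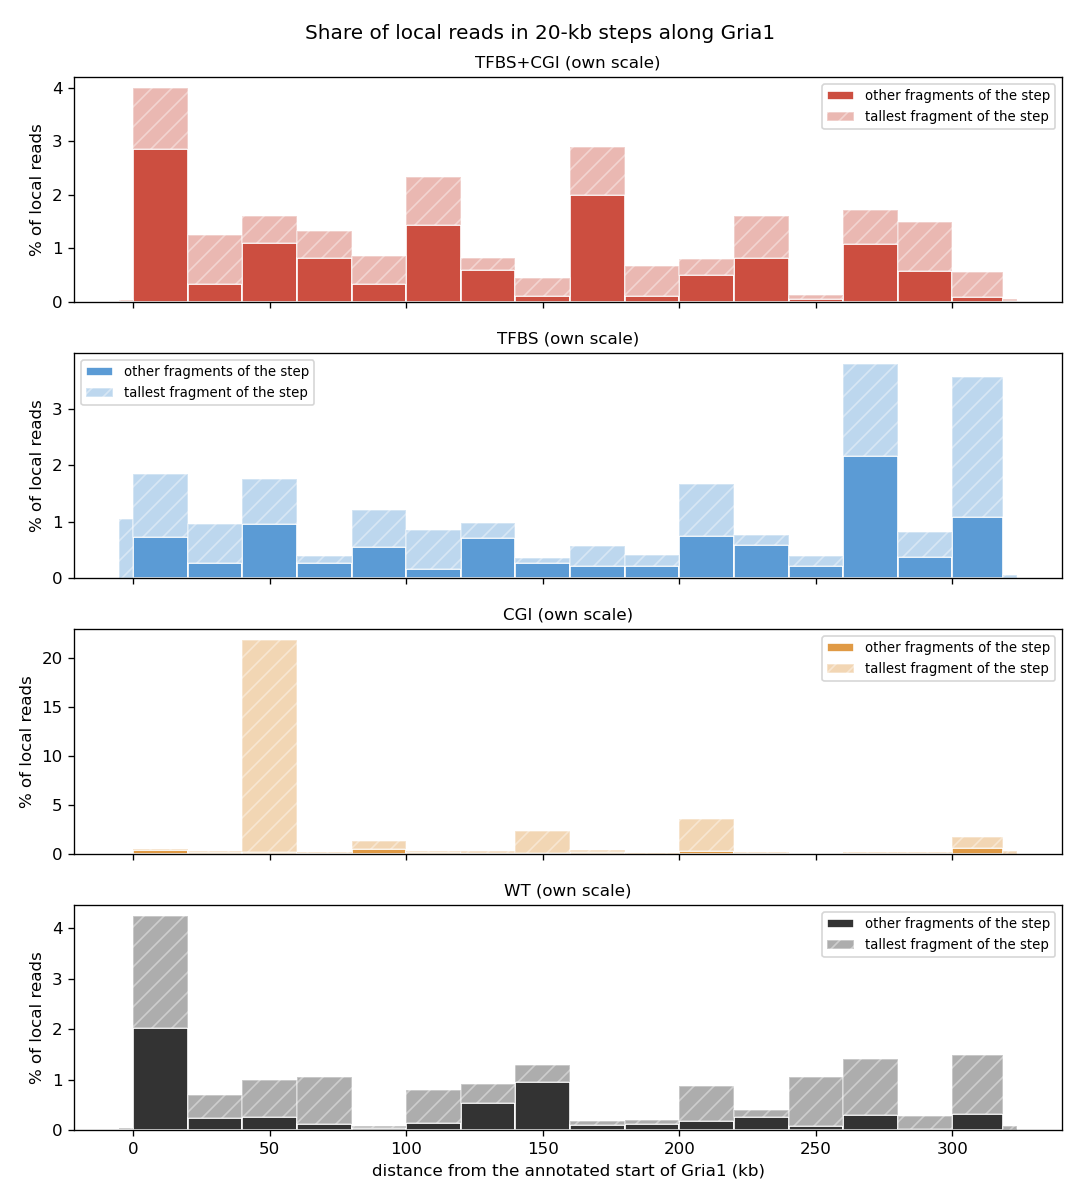
Share of local reads (%) in 20-kb steps against distance from the annotated start of Gria1 (kb), 1 panel per library, each on its own scale from 0, with the tallest fragment of every step hatched. In CGI the step at 40 to 60 kb holds 21.9% of local reads and nearly all of it is hatched; the narrow bars at both ends are the 5-kb flanks.

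Most steps rested on few fragments. A typical step had a median of 12 fragments with reads in TFBS+CGI, 16.5 in TFBS, 7 in CGI and 9 in WT, and its tallest fragment held a median of 43.2%, 51.2%, 59.1% and 70.9% of its reads. That fragment held at least 50% of the step's reads in 7 of 16 steps in TFBS+CGI, 8 in TFBS, 10 in CGI and 11 in WT. In the 3 highest steps of CGI it held 99.1%, 92.6% and 97.8%. The fewest fragments that together held 50% of all Gria1 reads were 15 in TFBS+CGI, 9 in TFBS, 1 in CGI and 6 in WT. By this count the reads of TFBS+CGI were spread over the most fragments and those of CGI over the fewest, whereas by steps TFBS had the smallest span between highest and lowest.

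The promoter end of the gene was read as follows. The 5 kb before the start held 122 reads in TFBS+CGI, 1370 in TFBS, 0 in CGI and 46 in WT, and the 0 reads in CGI allow a share of up to 0.00578%. In TFBS 1361 of these reads lay on the fragment at 57009156 to 57009459, just before the start, which also had most reads within 5 kb of the start in WT, with 33. In TFBS+CGI and CGI the tallest fragment within 5 kb of the start was at 57014547 to 57014836, 3.12 kb past it, with 674 and 6 reads. The 33 WT reads and 6 CGI reads thus lie on fragments led by TFBS and TFBS+CGI. For these pairs of libraries, low counts recurring on other chromosomes are given below. Whether the 33 and 6 reads are contacts of WT and CGI was not tested. Within 5 kb of the start on each side, the share of local reads was 0.239% in TFBS+CGI, 1.28% in TFBS, 0.0116% in CGI and 0.0643% in WT. Most of the TFBS share there lay on its fragment with 1361 reads. The large promoter step of WT lay beyond the 5 kb past the start. Its tallest fragments, at 57017218 to 57017454 and 57025283 to 57025439, are 5.76 and 13.8 kb past the start and had 2246 and 1888 WT reads, against 0 and 0 in TFBS+CGI, 5 and 3 in TFBS, and 2 and 4 in CGI. The promoter step of TFBS+CGI rested on other fragments, led by 57030878 to 57030938, 19.3 kb past the start, with 4731 reads in TFBS+CGI, 8 in TFBS, 85 in CGI and 0 in WT. The promoter step held similar shares in TFBS+CGI and WT, with a log2 ratio of -0.085 (-0.13 to -0.037), on different tallest fragments. Without the tallest fragment of the span in each library the ratio was 0.49 (0.42 to 0.56).

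The same held for the rest of the gene. The other fragments among the 3 tallest of TFBS+CGI were 57023075 to 57023205, 11.6 kb into the gene, with 3972 reads in TFBS+CGI, 1472 in TFBS, 74 in CGI and 42 in WT, and 57304257 to 57305021, 293 kb into it, with 3816, 4, 75 and 0 reads in the same order. The 3 tallest of TFBS all lay near the gene end. They were 57326317 to 57326507 at 315 kb, 57278651 to 57278695 at 267 kb and 57289338 to 57289387 at 278 kb, with 3231, 2121 and 1856 reads in TFBS, against at most 13 in TFBS+CGI and 4 in CGI, and 98, 65 and 67 in WT. After its tallest fragment, CGI was led by 57219664 to 57219705 at 208 kb and 57154751 to 57154840 at 143 kb, with 1743 and 1203 reads in CGI, against at most 9 in TFBS+CGI, at most 4 in TFBS and 0 in WT. The remaining fragment of WT, 57315340 to 57315956 at 304 kb, had 1179 reads in WT, against 1 in TFBS+CGI, 5 in TFBS and another 1 in CGI. Only the fragment at 57023075 stood among the 10 tallest of more than 1 library.

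Across the 10 tallest fragments of each library, 39 distinct fragments in all, 35 had at least 90% of their reads from the 4 libraries in a single library, and the median was 98.1%. A fragment with many reads in both TFBS+CGI and WT, at 57074052 to 57074293, 62.6 kb into the gene, was among the exceptions, with 2060 reads in TFBS+CGI, 10 in TFBS, 40 in CGI and 941 in WT. These fragments were picked for being among the tallest of a library, so a lead of that library is partly built in. Reads were also not scaled for depth, and local reads ranged from 51943 in CGI to 417180 in TFBS+CGI. Neighbouring fragments could have most reads in different libraries. The fragment at 57326241 to 57326312 had 569 reads in CGI and 0 in TFBS, and the next, beginning at 57326317, had 1 in CGI and 3231 in TFBS. Of all 365 Gria1 fragments, 25 had reads in all 4 libraries, 95 in 3, 123 in 2 and 122 in 1. Of the CGI fragments 92.7% also had reads in TFBS+CGI, which was 56.9% of the TFBS+CGI fragments, and CGI had none that no other library shared. Of the WT fragments 79.5% also had reads in TFBS, which was 45.8% of the TFBS fragments. The matching counts over all 1586 local fragments are not given here, so neither this sharing nor its lack can be called particular to Gria1.

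**Figure D3:**
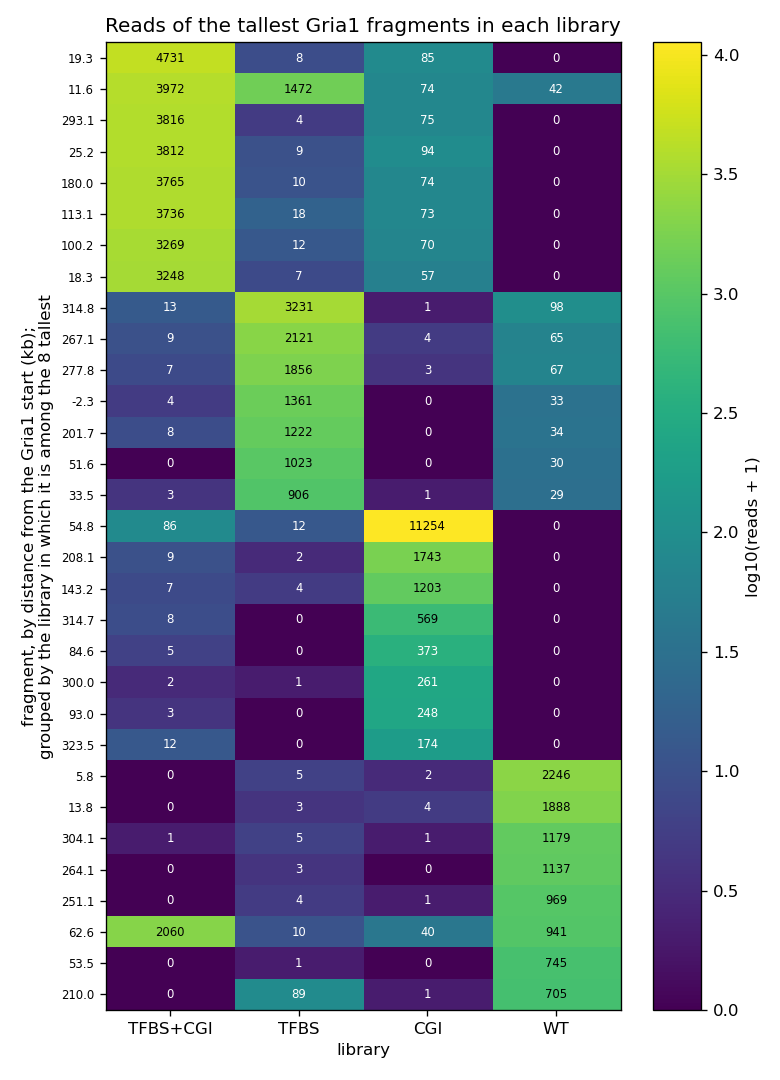
Reads on the 8 tallest Gria1 fragments of each library (rows, by distance from the gene start in kb, grouped by library) in all 4 libraries (columns), coloured by log10(reads + 1) with the read count printed. Blocks of high counts lie in a single column, with low counts in CGI for the fragments of TFBS+CGI and in WT for those of TFBS.

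Among the 12 ordered pairs of libraries, 2 had low counts in a narrow range of proportions. For the 10 tallest TFBS fragments, WT had 2.42% to 3.89% of the TFBS reads, with a median of 3.05%. For the 10 tallest TFBS+CGI fragments, CGI had 1.09% to 2.47%, with a median of 1.91%. The same pairs were measured on other chromosomes, over the 200 tallest fragments there of the first library of each pair. WT had reads on 200 of these TFBS fragments, at a median of 2.94% of the TFBS reads, and CGI on 195 of those of TFBS+CGI, at a median of 1.56%. The other 10 pairs had at least 1 fragment far from their median or with 0 reads, such as TFBS+CGI in TFBS, at 0.0935% to 37.1%, the latter on the fragment at 57023075. Recurrence on other chromosomes was not limited to the first 2 pairs. TFBS had reads on 185 of the 200 fragments of WT and 157 of TFBS+CGI, at medians of 0.357% and 0.266% (in Gria1 0.338% and 0.251%). TFBS+CGI had reads on 158 of TFBS and 150 of CGI, at 0.370% and 1.01% (in Gria1 0.390% and 0.988%). In the remaining pairs it was 17 to 131 of 200. WT had reads on 17 of the 200 tallest fragments of TFBS+CGI elsewhere, and on 1 of its 10 tallest in Gria1. Whether these recurring reads are contacts of the library in which they were read was not tested.

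With these off-chromosome proportions, the reads that each library would hold in Gria1 from the other 3 came to 282 in TFBS+CGI, 372 in TFBS, 1485 in CGI and 821 in WT, or 0.299%, 1.33%, 8.42% and 5.05% of their Gria1 reads. They touched many more fragments than reads. Fragments with more than 3 times the reads given by these proportions numbered 169 in TFBS+CGI, 205 in TFBS, 25 in CGI and 79 in WT. The others numbered 33, 66, 99 and 77. On those fragments alone Gria1 held 22.6% of local reads in TFBS+CGI, 21.4% in TFBS, 35.4% in CGI and 15.9% in WT, close to the values with all fragments. The CGI profile of Gria1 thus rests on 25 fragments, and on the other 99 it had reads no higher than 3 times that estimate. Over the whole local range, fragments above 3 times the estimate numbered 97 of 544 in CGI, 715 of 864 in TFBS+CGI, 933 of 1237 in TFBS and 382 of 720 in WT. The low count of CGI is therefore not particular to Gria1.

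The middle of the profile moved with the tallest fragments. Of the Gria1 reads, 56.1% lay in the first 159 kb of the gene with its upstream flank in TFBS+CGI, 43.9% in TFBS, 80.0% in CGI and 62.8% in WT. Without the tallest fragment of each library these values were 53.7%, 49.7%, 44.6% and 56.8%. Of the fragments with reads, 51.0% lay there in TFBS+CGI, 52.4% in TFBS, 50.0% in CGI and 57.1% in WT. Going along the gene, 50% of the reads had been passed at 113 kb in TFBS+CGI, 201 kb in TFBS, 54.8 kb in CGI and 123 kb in WT. In CGI that point moved to 208 kb without the tallest fragment, the largest move of the 4 libraries.

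**Figure D4:**
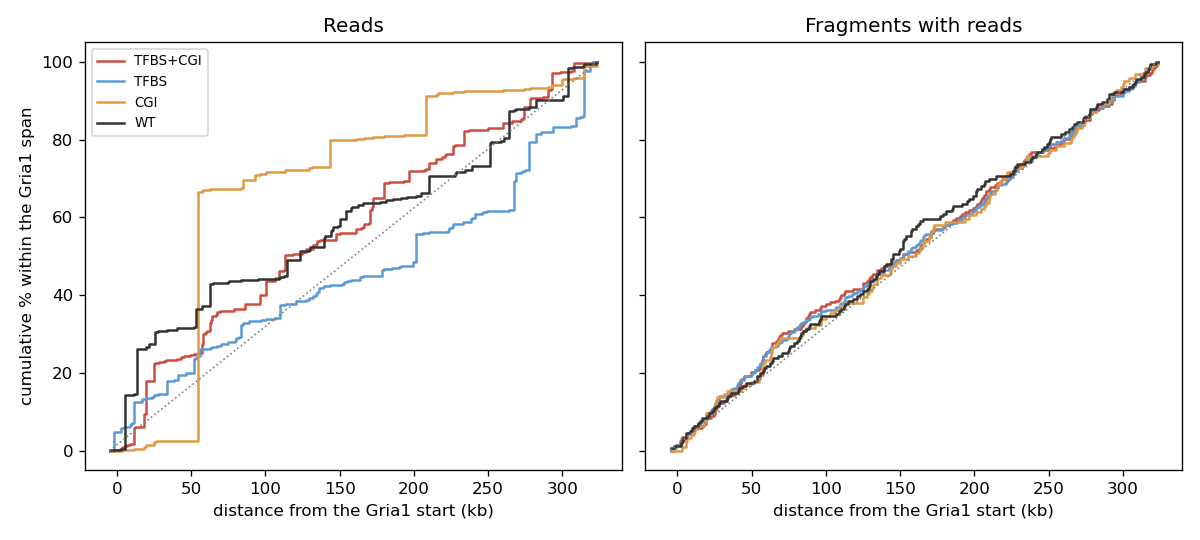
Cumulative share (%) of Gria1 reads (left) and of Gria1 fragments with reads (right) against distance from the gene start (kb) in the 4 libraries, with the dotted line showing an even spread. The read curves climb in jumps at different places, the largest in CGI at 54.8 kb, while the fragment curves of all libraries lie close together.

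Step by step against WT, by share of local reads, knock-in libraries were higher in some parts of the gene and lower in others. A step was counted as higher or lower where its share differed at least 2-fold. In TFBS+CGI, 6 of 16 steps were higher and 3 lower, against 44.2% higher and 29.5% lower over all 95 steps counted within 1 Mb. In TFBS, 6 were higher and 4 lower, against 46.7% and 28.3% of 92 steps. In CGI, 3 were higher and 8 lower, against 23.3% and 53.3% of 90 steps. These shares were near the background in each comparison. The counts depend on the scale: on the deposited RPM, 13 steps were higher and 0 lower in TFBS+CGI, 12 were higher and 0 lower in TFBS, and 3 were higher and 9 lower in CGI. On that scale the libraries differ over the whole local range. It held 5.48% of all reads in TFBS+CGI, 5.63% in TFBS, 0.815% in CGI and 1.33% in WT. With fragments capped at the 95th percentile, 6 were higher and 3 lower in TFBS+CGI, 5 and 3 in TFBS, and 5 and 1 in CGI. Shares over all steps within 1 Mb are not given for RPM or capping. Those counts can therefore not be called particular to Gria1. The median log2 ratio over the 16 steps was 0.51 for TFBS+CGI, 0.87 for TFBS and -0.99 for CGI, beside 0.70, 0.70 and -1.43 over the steps outside the gene with reads in both libraries. In CGI the span as a whole was higher than in WT while its median step was lower.

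Step 5, at 80 to 100 kb, was higher than WT in all 3 knock-in libraries. It held 0.852% of local reads in TFBS+CGI, 1.21% in TFBS, 1.28% in CGI and 0.085% in WT, where it was the lowest step of the gene, with 86 reads. The log2 ratios were 3.32, 3.83 and 3.91, and they share this WT count. With the tallest fragment of every step left out of each library, step 5 held 0.362% in TFBS+CGI, 0.622% in TFBS, 0.806% in CGI and 0.0463% in WT, so the order remained. Step 13, at 240 to 260 kb, was lower in all 3, with 0.129% in TFBS+CGI, 0.390% in TFBS, 0.0154% in CGI and 1.05% in WT. There 91.4% of the WT reads lay on a single fragment. Without the tallest fragment of every step, step 13 held 0.0515% in TFBS+CGI, 0.236% in TFBS, 0.00554% in CGI and 0.100% in WT, and TFBS was then above WT, while TFBS+CGI was less than 2-fold below it. How many steps outside Gria1 were higher or lower in all 3 comparisons is not given here. Neither step 5 nor step 13 can therefore be called particular to the gene.

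Beside these steps, the comparisons differed in where the knock-in library stood apart. In TFBS+CGI the largest ratio was at step 9, with 2.90% against 0.189% in WT, a log2 ratio of 3.94 (3.73 to 4.15). It was 3.92 without the tallest fragment of the span in each library and 4.21 without that of every step. In TFBS step 14 was at 1.42 (1.34 to 1.51), and at 1.43 and 2.90 under these exclusions. Step 16 of TFBS was at 1.25 (1.17 to 1.34) with all fragments, at -0.47 (-0.57 to -0.36) without the tallest of the span, and at 1.73 (1.56 to 1.91) without that of every step, so its direction depends on which fragments are left out. The promoter step of TFBS was at -1.20 (-1.27 to -1.12) with all fragments, at -0.12 (-0.21 to -0.035), which is no 2-fold difference, without the tallest of the span, and at -1.47 without that of every step. In CGI step 3 had the largest ratio with all fragments, 4.47, which was -2.05 (-2.36 to -1.75) without its tallest fragment and -0.019 (-0.37 to 0.32) without that of every step. The promoter step of CGI was lower under each, at -3.02 (-3.21 to -2.85) with all fragments, -1.63 without the tallest of the span and -2.13 without that of every step. With fragments capped at the 95th percentile, however, it held 2.13% in CGI and 2.49% in WT, which is no 2-fold difference. Step 16 of CGI was at 0.20 (0.076 to 0.32), and at 0.52 and 1.28 under the exclusions. In TFBS+CGI step 16 was at -1.41 (-1.50 to -1.32), and at -1.43 and -1.94 under the exclusions. Against TFBS, TFBS+CGI was higher in 5 steps and lower in 4, beside 40.6% and 30.2% of 96 steps within 1 Mb. It was higher at the promoter step, the first 20 kb of the gene, with 4.00% against 1.85%. The log2 ratio was 1.11 (1.05 to 1.17), which was 0.61 without the tallest of the span and 1.97 without that of every step. Within 5 kb of the annotated start, however, TFBS+CGI held less than TFBS, 0.239% against 1.28% of local reads. It was lower at the gene end, with 0.562% against 3.56%, a ratio of -2.66 (-2.74 to -2.59). That ratio was -0.96 (-1.06 to -0.86), short of 2-fold, without the tallest of the span, and -3.67 without that of every step.

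**Figure D5:**
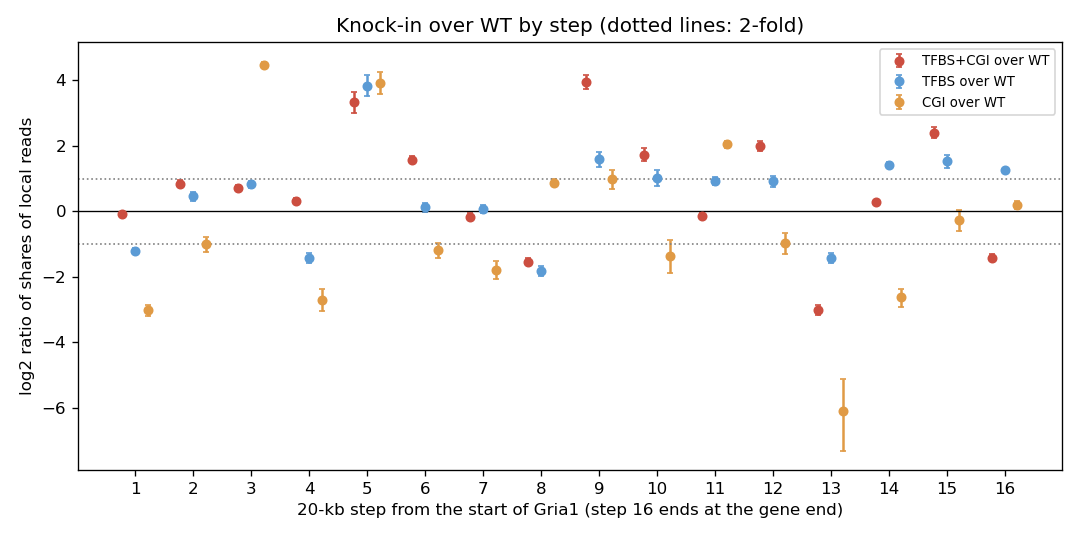
log2 ratio of the share of local reads in each knock-in library over WT for the 16 steps of Gria1, with exact conditional 95% intervals that cover counting error only and dotted lines at 2-fold. Step 5 lies above the upper dotted line and step 13 below the lower one in all 3 comparisons, which share 1 WT library.

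Whether these step calls hold without the tallest fragments was read from the steps themselves. With the tallest fragment of every step left out of each library, 5 of the 6 higher steps remained in TFBS+CGI, 5 of 6 in TFBS and 1 of 3 in CGI. Of the lower steps, 2 of 3 remained in TFBS+CGI, 2 of 4 in TFBS and 4 of 8 in CGI, and 2 steps in TFBS and 1 in CGI took the opposite call. Counting new calls too, 9 steps were higher and 2 lower in TFBS+CGI, 10 and 2 in TFBS, and 5 and 5 in CGI. This exclusion was made only inside Gria1, so no share over all steps within 1 Mb stands beside these counts. The whole span then held 14.3% of local reads in TFBS+CGI, 11.9% in TFBS, 4.99% in CGI and 6.48% in WT. On that count CGI was below WT, at a log2 ratio of -0.38, and TFBS+CGI and TFBS were above it, at 1.14 and 0.88.

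Across the 16 steps, the shares of different libraries were weakly related. Spearman's rho was 0.46 between TFBS and CGI, 0.34 between TFBS+CGI and TFBS, and 0.31 between TFBS and WT. It was 0.14 between CGI and WT, 0.056 between TFBS+CGI and CGI, and -0.071 between TFBS+CGI and WT. These are descriptions over neighbouring steps that share their viewpoint and restriction sites.

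The fragments beside the edges of the span had these values. Before the start, the outermost fragment inside had 46 reads in TFBS+CGI, 2 in TFBS, 6 in CGI and 13 in WT, and the nearest fragment outside had 169, 9, 6 and 1. After the end, the outermost fragment inside had 12, 2, 174 and 79 reads in the same order, and the nearest outside had 171, 1, 2 and 1.

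Among the 5 other protein-coding genes within 1 Mb with reads in all 4 libraries, the pattern of shares over the 4 libraries was most like that of Gria1 for Galnt10, which encodes a glycosyltransferase, and Mfap3, although neither was close. Galnt10 held 1.34% of local reads in TFBS+CGI, 0.327% in TFBS, 0.316% in CGI and 0.951% in WT. Mfap3 held 0.919%, 0.143%, 0.141% and 0.0544% in the same order. With each gene's log2 shares centred on their mean, the root mean square difference from Gria1 over the 4 libraries was 1.19 for Galnt10 and 1.42 for Mfap3. With all fragments Gria1 had its highest share in CGI, and both of these genes had theirs in TFBS+CGI. Without its tallest fragment Gria1 was also highest in TFBS+CGI, at 21.7%, against 15.7% in CGI.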

How the data were processed

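Each library was deposited as restriction fragments with reads, in RPM (reads scaled by library total). Per the submitters' processing notes the authors used HISAT2 and mm10. Read filters and the HISAT2 version were not given in the sources used here. Chromatin was cut with NlaIII and then DpnII, per the labels' protocols. All RPM values were whole multiples of the smallest value of their library, within 0.1 of a read, so reads were recovered by division (100% of values). A count test was not run, as there is 1 library per genotype. Total reads were 7615835 in TFBS+CGI, 2313468 in TFBS, 6373936 in CGI and 7585737 in WT.

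The fragment with most reads was the viewpoint, and fragments were assigned by midpoint. Gria1 and its neighbours were placed with RefSeq genes on GRCm38.p6, the assembly of mm10. Exon positions were not used here, and fragments are placed by distance from the start. Shares have 95% Wilson intervals, and ratios have exact conditional (Clopper-Pearson) intervals. A step counted where a library had at least 10 reads in it, and 0 reads were set to 3. The rule for named items took the first and last step, the 3 highest steps and 3 tallest fragments of each library, the tallest fragment within 5 kb of the start and the 2 genes most alike in pattern. Fragments beyond it were chosen after their values were seen. The code for ratios and calls was run on simulated independent counts of equal depth with a known fold change. Unequal depth, dependent PCR reads and steps resting on single fragments were not simulated, so this checks the code only. Gria1, its steps and the alternatives were chosen with earlier results of these data known. Python 3.11.15, pandas 2.3.3 and scipy 1.17.1 were used.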

Additional observations from a re-analysis of the deposited data

Results flagged for a closer look

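The 9 libraries of the other viewpoints, at Gata6, the Six2 promoter and the poised enhancer of Six3, were not used above, and their reads over Gria1 were counted separately. Of these, 4 had more than 3 reads there, the limit that a count of 0 allows. From the Gata6 promoter in neural progenitors, Gria1 had 4 reads in TFBS+CGI, 69 reads in TFBS, 71 reads in CGI and 4 reads in WT. The 71 reads lay on a single fragment and 54 of the 69 on another. None of the fragments in these 4 libraries was among those read from the Gria1 insertion site. The other 5 libraries had at most 3 reads each, and 3 of them had 0.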

How the results depend on the processing

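Of the log2 ratios of the Gria1 span over WT, those of TFBS+CGI and TFBS stayed above 0 in all alternatives. The CGI ratio stayed above 0 except without the tallest fragment of every step, where it was -0.38 (TFBS+CGI 1.14, TFBS 0.88); the alternative removes 16 fragments per library. For TFBS+CGI, TFBS and CGI in this order, the ratios were 2.53, 2.49 and 0.37 on deposited RPM, 2.51, 2.54 and 0.32 as shares of chromosome 11, 0.61, 0.45 and 0.14 without the tallest fragment, 0.42, 0.26 and 0.57 with fragments capped at the 95th percentile, and 0.11, 0.016 and 0.073 by number of fragments. With 25 kb left out around the viewpoint TFBS+CGI was at 0.39 and TFBS at 0.30, without the flanks TFBS was at 0.35, and on fragments above 3 times the recurrence estimate CGI was at 1.16. Under the alternatives of single steps, step 16 of TFBS turned to -0.47 and step 3 of CGI to -2.05 without the tallest fragment of the span. Steps at least 2-fold higher than WT numbered 13 in TFBS+CGI and 12 in TFBS on deposited RPM, and the same as shares of chromosome 11. By number of fragments they were 0 for TFBS+CGI, 0 for TFBS and 1 for CGI, with 10-kb steps 13, 14 and 9, and with 40-kb steps 2 in TFBS+CGI and 3 in TFBS. Capping gave 5 in CGI, where only 1 step was then lower, shifting by 10 kb 6 in CGI, and leaving out the tallest fragment of every step 10 in TFBS and 5 in CGI. For these alternative counts, shares over all steps within 1 Mb are not given here. Leaving out the tallest fragment of every step and the recurrence filter were chosen after seeing the data. The cause of the other differences was not tested. With 1 library per genotype no replicate could be left out and no paired analysis was possible because no genotype has a second library. Local reads were fewest in the CGI library, at 51943.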
